A study of Homo sapiens with 5 samples.

Results

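Wide ZBTB7A regions are stretches of the VCaP genome in which a peak of chromatin immunoprecipitation and sequencing (ChIP-seq) reached at least 1000 bp in at least 1 of 3 culture conditions. The members were thus selected on a measured value, their width. Peaks of that width on chromosomes 1 to 22 and X were taken from each list and merged where they overlapped by at least 1 bp, which gave 1923 regions among 148985 merged regions in all. VCaP, an established cell line from a prostate cancer, has the androgen receptor and a TMPRSS2-ERG fusion gene. Cells received 10 nM of the androgen dihydrotestosterone (DHT) in medium containing 5% hormone-depleted serum for 4 hours (DHT, 2 libraries), or were kept in medium with 10% full serum (FBS, 1 library), or received vehicle in the hormone-depleted medium (CSS, 2 libraries). The treatment text in the labels is identical for every library, so the reading of FBS as full serum with no DHT given rests on the culture condition and on the stated design. Each condition has 1 peak list, so there is no spread between replicates, no test between conditions, and every interval given is an exact 95% Clopper-Pearson interval that covers counting error only.

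ZBTB7A, also called Pokemon or LRF, is a transcription factor that binds DNA through zinc fingers and recruits corepressors through its BTB domain. It is known for silencing fetal globin genes in red cell precursors. Peaks of such a factor are usually short. A peak caller's interval runs as far as enrichment stays above a threshold, so its width depends on depth and on the strength of the signal as well as on the extent of binding. Read totals are not part of the lists, so the depth behind each width is unknown. Neither the antibody target nor the cell line could be checked by markers from peak positions. Positions are on hg19, and the gene tables at hand are on another build, so regions are given by position and no gene or sequence is assigned to them.

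Wide peaks made up 447 of 33236 DHT peaks (1.34%), 1202 of 123651 FBS peaks (0.972%) and 679 of 36674 CSS peaks (1.85%). They held 5.27% of all peak bases in DHT, 3.73% in FBS and 7.61% in CSS. Their median width was 1183 bp in DHT, 1147 bp in FBS and 1221 bp in CSS, against medians over all peaks of 249 bp, 258 bp and 239 bp in the same order of lists. Peaks of at least 1500 bp numbered 57 in DHT, 94 in FBS and 146 in CSS, so that the CSS list, although far shorter than the FBS list, held more of the widest class. The merged regions had a median width of 1178 bp (interquartile range 1069 to 1358 bp) and covered 2.41 Mb in total. Width chose these regions, so none of these widths is a test.

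The limit cut through a continuous range. The 3 peaks nearest above it were 1000, 1000 and 1001 bp wide in DHT, and 1000 bp each in FBS and in CSS, and the nearest below missed it by 1 to 3 bp in DHT, by 1 bp in FBS and by 1 to 2 bp in CSS. Among peaks at most 50 bp above the limit, median fold enrichment was 7.63 in DHT, 6.09 in FBS and 8.66 in CSS, and among those at most 50 bp below it 7.80, 5.87 and 8.43. Fold enrichment and the −log10 q are the authors' values for each peak and are compared only within a list. A sum of −log10 q over the 3 lists served only to order the regions wide in every list.

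Wide peaks ranked high by q-value and less high by fold enrichment. Ranked by −log10 q, the median wide peak stood at the percentile 93.1 of the DHT list, 96.3 of the FBS list and 96.7 of the CSS list. Among the strongest 10% of each list, 8.54% of DHT peaks, 7.80% of FBS peaks and 16.1% of CSS peaks were wide. Those strongest 10% held 284 (63.5%) of the DHT wide peaks, 965 (80.3%) of the FBS wide peaks and 590 (86.9%) of the CSS wide peaks. In the weakest 3 of 10 equal parts there was 1 wide peak in all, in FBS. Ranked by fold enrichment, the median percentiles were 78.6 in DHT, 88.9 in FBS and 86.2 in CSS, and the top 100 peaks by fold held 1, 3 and 1 wide peaks in those lists. The highest fold of a wide peak was 13.6 in DHT, 13.2 in FBS and 14.4 in CSS, against 29.1, 23.1 and 30.2 over all peaks. Both measures come from the same peaks as the width, so these ranks describe the wide peaks and support nothing further.

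**Figure D1:**
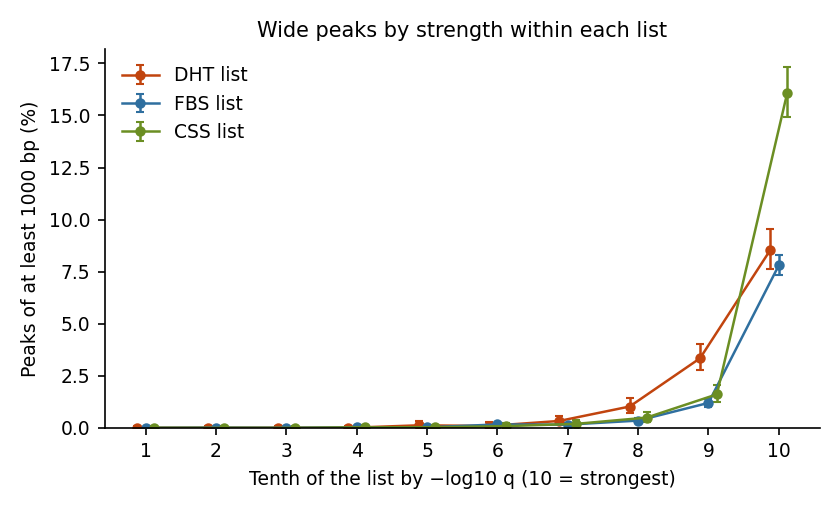
Share of peaks of at least 1000 bp (vertical axis, %) in each of 10 equal parts of a list ranked by −log10 q (horizontal axis, part 10 the strongest), with exact 95% intervals as bars, for the DHT, FBS and CSS lists. Wide peaks gather in the strongest part, at 8.54% in DHT, 7.80% in FBS and 16.1% in CSS.

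Most wide regions were wide in 1 serum only. Of the 1923 regions, 1130 were wide in FBS only, 721 were wide in DHT or CSS but not in FBS, and 72 were wide in FBS and in at least 1 of the others. The 721 split into 90 wide in DHT only, 313 wide in DHT and CSS, and 318 wide in CSS only. The shared 72 split into 24 wide in DHT and FBS, 29 wide in FBS and CSS, and 19 (0.988% of all) wide in every list. The shared regions were thus 5.99% of the FBS-wide regions and 9.08% of the 793 regions wide in DHT or CSS. Sharing was nonetheless more frequent than over all FBS peaks, of which 0.51% had a wide DHT or CSS partner, and 46.4% of FBS-wide peaks had a DHT or CSS partner of at least 500 bp.

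Most regions wide in FBS only had narrower peaks in DHT and CSS. With peaks of any strength counted, regions wide in depleted serum had an FBS peak about as often as all merged regions with both a DHT and a CSS peak. A peak of any width was present in DHT at 90.8% of all wide regions, in FBS at 82.7% and in CSS at 92.2%, against 21.1%, 81.8% and 23.5% over all merged regions. Every list had a peak at 1357 wide regions (70.6%), against 7.67% over all merged regions. The lists that chose a region count toward its presence, and a wide region covers more bases and meets other peaks more easily, so the shares over all regions are no like-for-like baseline. Of the 1130 regions wide in FBS only, 954 (84.4%, 82.2 to 86.5%) had a DHT peak and 980 (86.7%, 84.6 to 88.7%) had a CSS peak. All 721 regions wide in DHT or CSS but not FBS had both a DHT and a CSS peak, whichever of them was wide, while 388 of them (53.8%, 50.1 to 57.5%) had an FBS peak. Over all 20080 merged regions with both a DHT and a CSS peak, most of which are narrower, the share with an FBS peak was 56.9%. The other 333 of the 721 had none. The 53.8% depended on the rule for presence. It was 16.8% with only peaks of a −log10 q of at least 5 and 12.2% with equal numbers of top peaks from each list. It was 10.8% where FBS peaks had to cover 50% of the region and 5.27% where they needed a −log10 q of at least 10. Among single peaks of a −log10 q of at least 5, an FBS peak overlapped 22.5% of DHT-wide peaks, against 34.6% over all DHT peaks. For CSS-wide peaks this was 21.3%, against 36.3% over all CSS peaks. Wide peaks thus fell below their list there.

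**Figure D2:**
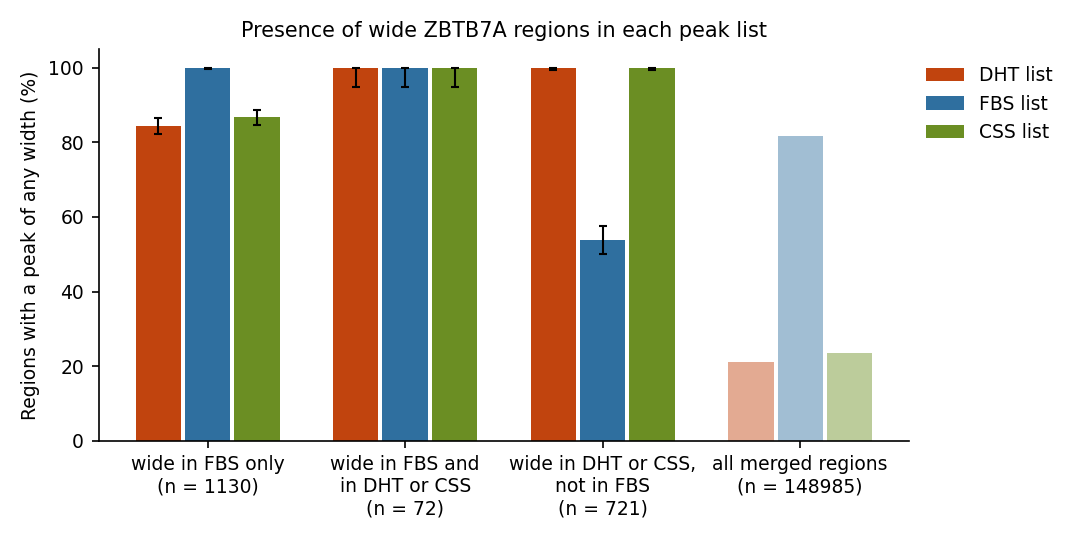
Share of regions with a peak of any width (vertical axis, %) in the DHT, FBS and CSS lists, for the 3 groups of wide regions and, in pale bars, for all merged regions; black bars are exact 95% intervals. Peaks of any strength are counted. Regions wide in FBS only mostly have DHT (84.4%) and CSS (86.7%) peaks. Those wide in DHT or CSS but not in FBS have an FBS peak in 53.8% of cases. That is near the 56.9% over all merged regions with both a DHT and a CSS peak.

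By overlap of at least 1 bp, 55.5% of DHT-wide peaks had an FBS partner, against 48.8% over all DHT peaks. The share was 56.8% of CSS-wide peaks, against 44.8% over all CSS peaks, and 92.3% of FBS-wide peaks had a DHT or CSS partner, against 17.1% over all FBS peaks. To set width aside, a wide peak was counted as shared only where a peak of the other list covered its summit base, the single base of highest signal. By this measure the direction differed between the sera. FBS-wide peaks were covered at the summit by a DHT peak in 52.7% of cases (49.8 to 55.5%) and by a CSS peak in 53.6% (50.7 to 56.4%), against 8.78% and 8.87% over all FBS peaks. Depleted-serum wide peaks did the reverse with FBS. DHT-wide peaks had an FBS peak over the summit in 24.4% of cases (20.5 to 28.6%), against 39.4% over all DHT peaks. CSS-wide peaks had one in 22.1% (19.0 to 25.4%), against 35.6% over all CSS peaks. Between the depleted-serum lists, coverage was nearly complete. A CSS peak covered 98.7% of the DHT-wide summits, against 56.6% over all DHT peaks, and a DHT peak covered 95.7% of the CSS-wide summits, against 49.6% over all CSS peaks. Wide peaks were mostly strong, so the same was counted among the strongest 10% of each list. There an FBS peak covered the summit of 21.8% of DHT-wide peaks (17.2 to 27.1%), against 40.9% of DHT peaks of 500 to under 1000 bp and 36.7% of those under 500 bp. For CSS peaks the shares were 18.8% (15.7 to 22.2%), 35.4% and 36.8% over the same 3 width classes. With all FBS peaks counted, the low share of wide peaks depended on the summit rule. By overlap of at least 1 bp at this strength, an FBS peak met 51.8%, 58.6% and 41.5% of DHT peaks in those classes. For CSS peaks the overlap shares were 54.6%, 52.0% and 42.0%. For FBS peaks, a DHT or CSS peak covered 69.3% of wide summits (66.3 to 72.2%), 58.8% at 500 to under 1000 bp and 24.9% under 500 bp. Between DHT and CSS the width classes hardly differed at this strength. CSS peaks covered 100% of DHT-wide summits, 98.1% of the middle class and 92.1% of the narrowest, and DHT peaks covered 98.1%, 96.4% and 93.0% of the CSS summits. The low share in FBS was also seen between lists of equal length. With the same number of top peaks from each list, 33236, an FBS peak covered 14.1% of DHT-wide summits, against 23.7% over all DHT peaks, and 11.5% of CSS-wide summits, against 22.7% over all CSS peaks used. By overlap of at least 1 bp between these equal lists, an FBS peak met 19.9% of DHT-wide peaks, against 27.8% over all DHT peaks. For CSS-wide peaks the overlap share was 16.5%, against 26.9% over all CSS peaks used. The low share was thus seen by both rules there. A DHT or CSS peak covered 66.5% of FBS-wide summits in these lists, against 23.1% over all FBS peaks used.

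Even where FBS had a peak at a region wide in depleted serum, it was an ordinary one. At these 388 regions the widest FBS peak had a median width of 344 bp, and the strongest had a median −log10 q of 4.23 and a median percentile of 40.00 within the FBS list. At the same 721 regions the median percentile of the strongest peak was 93.0 in DHT and 96.8 in CSS. At the 1130 regions wide in FBS only, the DHT and CSS peaks were of middling rank, with median percentiles of 63.1 in DHT and 68.6 in CSS and median widths of 414 bp and 424.5 bp. There 12.2% of the DHT-peak regions and 11.6% of the CSS-peak regions reached the strongest 10% of their list, near the share of the whole list that lies there.

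FBS coverage sat toward the flanks of depleted-serum wide peaks and was lower in their middle. At the midpoint of the 721 regions, 13.3% (10.9 to 16.01%) were covered by an FBS peak, against 20.8% (17.9 to 24.0%) at 300 bp before it and 19.0% (16.2 to 22.1%) at 300 bp after it. The midpoint was thus 6.59 points lower than the mean of both sides (a difference of -6.59), and the gap was -1.94 points with only peaks of a −log10 q of at least 5 and -1.11 points with equal numbers of top peaks, where fewer of the regions had an FBS peak (16.8% and 12.2%). These regions exclude FBS-wide peaks, which would cover a midpoint. With those kept, FBS covered 21.3% of DHT-wide midpoints (17.5 to 25.3%). At 300 bp to either side it covered 26.6% (22.6 to 31.0%) and 26.8% (22.8 to 31.2%). For CSS-wide peaks the midpoint value was 18.7% (15.8 to 21.8%), against 24.7% (21.5 to 28.2%) and 23.4% (20.3 to 26.8%). In both lists the midpoint interval overlapped the intervals of the sides. CSS peaks of 500 to under 1000 bp showed the opposite order, with FBS coverage of 49.3% at the midpoint and 43.5% and 42.9% at 300 bp to either side. Those peaks are shorter, and CSS itself covered only 57.7% and 57.5% of them at 300 bp, against 100% of CSS-wide peaks. The 2 classes are therefore no like-for-like comparison at that distance. In the other direction, DHT coverage of the regions wide in FBS only was 53.1% at the midpoint and 39.4% and 36.3% at 300 bp, and CSS coverage was 55.5%, 39.6% and 37.5%. Summits were also placed by part of the peak. The outer part is longer (40% of the length) than the middle part (20%), so the 2 shares are not directly comparable. Of 528 FBS peaks that overlapped a CSS-wide peak, 45.1% had their summit in the outer 40% of its length (20% at each end), 10.98% in the middle 20% and 12.3% beyond its edges. For the 325 that overlapped a DHT-wide peak, the outer and middle shares were 41.5% and 12.9%. DHT summits in CSS-wide peaks had a similar outer share, 44.8% of 1048, and a larger middle share, 17.6%. In CSS peaks of 500 to under 1000 bp, 29.6% of FBS summits were outer, 14.1% middle and 25.5% beyond the edges. For DHT summits in that class the outer share was 25.1% and the middle share 21.5%. The larger outer share in CSS-wide peaks was thus not particular to FBS. DHT summits in FBS-wide peaks lay in the middle 20% in 27.2% of cases and in the outer 40% in 20.8%, and CSS summits in 27.9% and 22.3%. At the 388 regions with an FBS peak, FBS summits were set against the summit of the strongest wide DHT or CSS peak. They lay only before it at 140, only at or after it at 149 and on both sides at 99. An FBS peak covered that summit at 122 (31.4%).

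**Figure D3:**
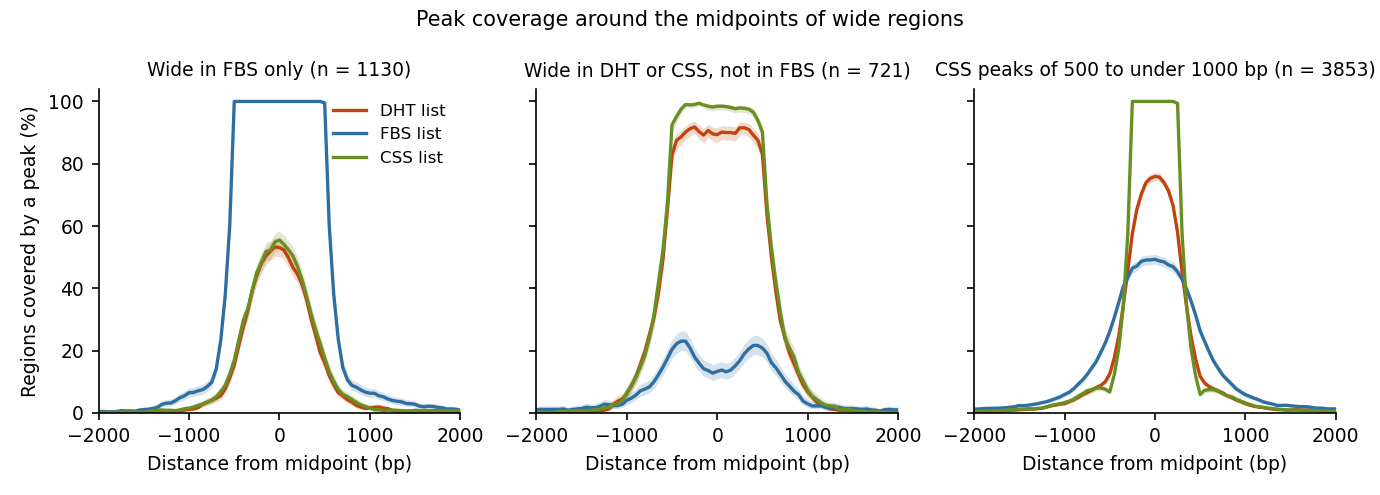
Share of regions covered by a peak of the DHT, FBS or CSS list (vertical axis, %) by distance from the region's midpoint (horizontal axis, bp), with exact 95% intervals shaded. FBS coverage dips to 13.3% at the middle of regions wide in DHT or CSS but not FBS, and peaks at 49.3% at the middle of CSS peaks of 500 to under 1000 bp.

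The comparison of DHT with CSS concerned width rather than presence. Every DHT-wide peak overlapped a CSS peak, against 63.9% over all DHT peaks, and every CSS-wide peak overlapped a DHT peak, against 56.9% over all CSS peaks. Of the DHT-wide peaks, 74.5% (70.2 to 78.5%) had a CSS partner that was itself wide, against 3.15% over all DHT peaks. Of the CSS-wide peaks, 48.9% (45.1 to 52.7%) had a wide DHT partner, against 1.42% over all CSS peaks. The widest peak of a region was wider in DHT at 201 of the 721 regions, wider in CSS at 518 and equal at 2, with medians of 1020 bp in DHT and 1183 bp in CSS. Over all wide regions, most wide in only 1 of the 2 lists missed the limit in the other by at most 500 bp. Regions that were also wide in FBS, outside the 721, are included here. At the 114 regions wide in DHT and not in CSS, the widest CSS peak had a median of 829.5 bp, and 88.6% reached 500 bp. At the 347 regions wide in CSS and not in DHT, the widest DHT peak had a median of 694 bp, and 82.1% reached 500 bp. DHT peaks were more often in pieces. A CSS-wide peak overlapped 2 or more DHT peaks in 47.7% of cases, with a median of 88.8% of its bases covered, while a DHT-wide peak overlapped 2 or more CSS peaks in 16.1%, with 95.5% covered. Where an FBS-wide peak had a partner, DHT peaks covered a median of 41.8% of it and CSS peaks 43.4%. Those medians leave out 176 of 1202 FBS-wide peaks without a DHT peak and 150 without a CSS peak. In reverse, where there was an FBS partner, FBS peaks covered a median of 36.0% of a DHT-wide peak and 32.6% of a CSS-wide peak. Left out there are 199 of 447 DHT-wide and 293 of 679 CSS-wide peaks, which had no FBS peak. Wide partners in the other serum were fewer. DHT-wide peaks had one in FBS in 9.62% of cases, against 3.98% over all DHT peaks, and CSS-wide peaks in 7.07%, against 3.74% over all CSS peaks. FBS-wide peaks had a wide partner in DHT in 3.58% of cases, in CSS in 3.99% and in either in 5.99%, against 0.263%, 0.427% and 0.51% over all FBS peaks.

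Among the regions wide in DHT only, the 3 widest show how such a difference looked. At chr12:132633553-132635269 DHT had 1 peak of 1717 bp (fold 5.51) and FBS none, while CSS had 2 peaks, the wider of 367 bp (fold 3.84). At chr8:65597741-65599273 the DHT peak was 1533 bp, the FBS peak 429 bp and the wider of 2 CSS peaks 854 bp, which between them covered 94.0% of the region. At chr17:75771824-75773255 the DHT peak was 1432 bp, FBS had none, and the CSS peak was 997 bp, just under the limit. The fold there was 6.30 in DHT and 9.11 in CSS. Among regions wide in CSS and not in DHT, chr8:117690435-117692543 held 4 DHT peaks of up to 988 bp, an FBS peak of 436 bp and 1 CSS peak of 2109 bp. At chr21:19091457-19093498 the region held 2 DHT peaks of up to 995 bp, no FBS peak and 1 CSS peak of 2042 bp. At both, 1 CSS interval stood against several adjoining DHT ones. The third, chrX:184854-187080, had 3 DHT peaks of up to 800 bp, an FBS peak of 2227 bp and a widest CSS peak of 1012 bp.

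The widest regions absent from FBS were long in both depleted-serum lists. At chr2:48782463-48784738 the DHT peak was 2142 bp, the widest of the DHT list, and the CSS peak 2165 bp. At chr11:63938712-63940816 the widths were 2079 bp in DHT and 2104 bp in CSS, and at chr17:29306141-29308234 they were 2086 bp and 2069 bp. At chr10:101597715-101600053 the widest DHT peak was 1139 bp and the CSS peak 2339 bp, the widest of the CSS list. At chr1:46706006-46708140 DHT had 3 peaks, the widest 1377 bp, and CSS had 1 of 2135 bp. None of these 5 regions overlapped an FBS peak. The reverse case was rarer and less wide. FBS alone had a peak at 93 wide regions (4.84%), against 68.8% over all merged regions. Their median width in FBS was 1105 bp and their median percentile 94.1. The widest were chrX:66988387-66990403 at 2017 bp, chr7:92462087-92463661 at 1575 bp and chr1:235667062-235668568 at 1507 bp.

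The 19 regions wide in every list were led by the strongest peak of each list. At chr1:121483937-121485551 the −log10 q was 219 in DHT, 259 in FBS and 229 in CSS, the first rank in each, and the widths were 1593 bp, 1615 bp and 1567 bp in that order. Its fold enrichment was lower in rank, at 13.6 in DHT (rank 51), 11.8 in FBS (rank 96) and 11.5 in CSS (rank 576). The region ends at the largest stretch of chromosome 1 without a peak in any list, 21.1 Mb long. At chr7:61968617-61969716 the −log10 q was 65.8 in DHT, 113 in FBS and 106 in CSS. The next by summed −log10 q were chr13:111805490-111806812, with 28.8 in DHT, 88.3 in FBS and 28.7 in CSS, and chr8:86554857-86556337, with 24.0 in DHT, 16.5 in FBS and 49.1 in CSS. Within its own list each of these peaks was among the strongest, at percentiles of at least 99.0. At chr11:66024928-66026298 the values were 17.6 in DHT, 37.6 in FBS and 22.03 in CSS. The third strongest wide peak of DHT was chr12:73823-74830 (39.1), and that of FBS was chr10:42599076-42600460 (101), which the third of CSS (91.3) overlapped. At the weak end stood chr11:63766324-63767353 in DHT (4.81), chr11:64058823-64059829 in FBS (3.34) and chr6:33588688-33589827 in CSS (4.19).

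Few wide regions lay beside the longest stretch of each chromosome without a peak in any list, although a larger share than of all merged regions. Within 1 Mb of such a stretch lay 38 wide regions (1.98%, 1.40 to 2.70%), against 1.25% of all merged regions. Of the 72 regions wide in FBS and in DHT or CSS, 8 (11.1%, 4.92 to 20.7%) lay there. No regions were removed here for repeated or poorly mapped sequence. Within 2 Mb of a chromosome's outermost peak lay 71 (3.69%, 2.89 to 4.63%), against 4.33%.

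Wide regions were spread over every chromosome counted, with few large departures. Chromosome 11 held 128 of them (6.66%, 5.58 to 7.86%), against 5.23% of all merged regions. Chromosome 16 held 21 (1.09%, 0.677 to 1.66%), against 1.74%. The share of peaks that were wide shows where the lists parted. On chromosome 16, 10 of 798 DHT peaks (1.25%), 3 of 1780 FBS peaks (0.169%, 0.0348 to 0.492%) and 15 of 900 CSS peaks (1.67%) were wide. On chromosome 22 the shares were 2.21% in DHT, 0.358% (0.132 to 0.778%) in FBS and 2.45% in CSS. FBS was thus low on both while the depleted-serum lists were near or above their own whole-list shares. On chromosome 11, 2.02% of DHT peaks, 1.11% of FBS peaks and 2.73% of CSS peaks were wide. Of 23 chromosomes, these were picked after their values were seen.

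**Figure D4:**
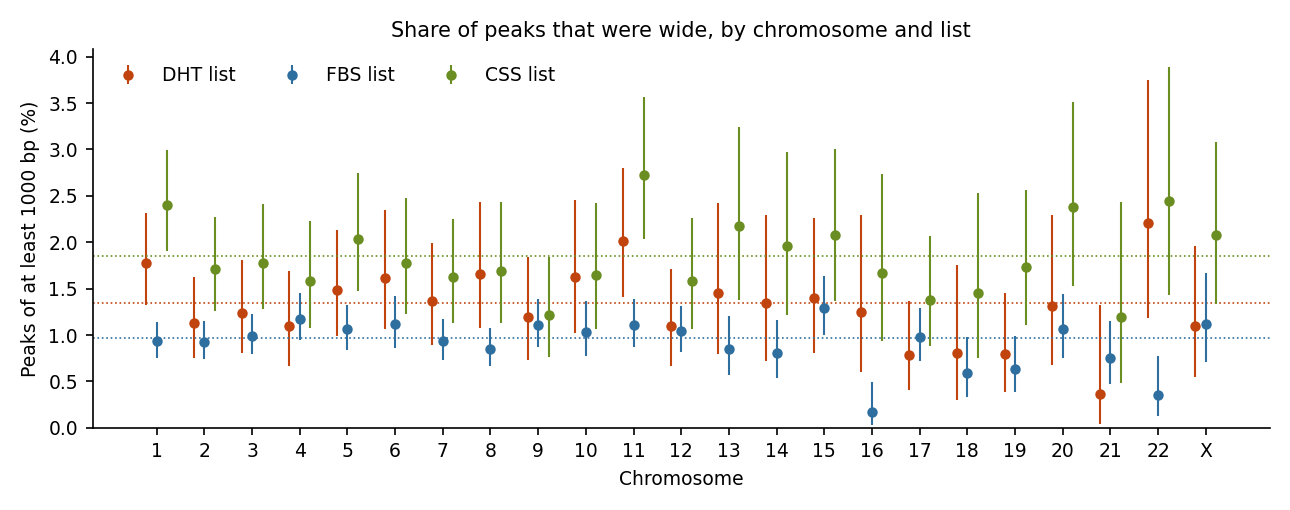
Share of peaks that were at least 1000 bp wide (vertical axis, %) on each chromosome (horizontal axis) in the DHT, FBS and CSS lists, with exact 95% intervals; dotted lines are the shares over all chromosomes counted. The FBS points of chromosomes 16 (0.169%) and 22 (0.358%) lie below those of the other chromosomes.

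Wide regions lay near each other somewhat more often than other merged regions lay near them. The nearest other wide region was a median of 280 kb away (interquartile range 103.3 to 744 kb). Another lay within 100 kb of 465 wide regions (24.2%, 22.3 to 26.2%), against 17.9% of the 147062 merged regions without a wide peak. Within 10 kb the shares were 2.60% and 1.73%, and within 1 Mb 82.0% and 73.1%. Linking neighbours within 100 kb gave 195 runs of at least 2 regions and 37 of at least 3. Of the regions wide in FBS only, 16.4% had another of their kind within 100 kb and 8.32% had one wide in depleted serum only. Of the regions wide in depleted serum only, 12.5% had one wide in FBS only within that distance and 11.9% had one of their own kind.

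The largest runs differed in make-up. The largest, chr11:63753298-64217606, held 13 wide regions in 464 kb, and 5 were wide in DHT, 7 in FBS and 7 in CSS. Next to it, chr11:63304347-63607814 held 6, of which 4 were wide in DHT, 5 in FBS and 2 in CSS. Runs of 5 were chr9:114287237-114424671, chr11:65006166-65219501, chr11:66024928-66248252 and one on chromosome X. With links of 1 Mb, those on chromosome 11 joined into 1 stretch of 4.74 Mb, chr11:63304347-68040368, with 54 wide regions (18 wide in DHT, 37 in FBS and 18 in CSS). Chromosome 11 thus held mixed runs. A stretch of chromosome X was one-sided. In chrX:66188032-67059032, 0.871 Mb long, 15 regions were wide, every one in FBS and none in DHT or CSS, and 14 of the 15 had no DHT or CSS peak of any width. These 14 were among the 93 wide regions with an FBS peak alone, of which chromosome X held 16. At each of the 15 wide regions the strongest FBS peak was at or above the percentile 98.4 of its list. The other FBS peaks of this stretch, which held 170 in all, were not ranked here. Its run chrX:66411438-66766930 held 7 wide regions amid 4 DHT, 57 FBS and 4 CSS peaks, and the run chrX:66884119-67059032 held 5 amid 46 FBS peaks and no DHT or CSS peak.

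A run on chromosome 8 was regular. chr8:86726459-86840895, 114 kb long, held 9 wide regions, of which 4 were wide in DHT, 9 in FBS and none in CSS. The CSS list had exactly 27 peaks there, in 9 groups of 3 that spanned 2015 to 2461 bp, each group at the place of 1 wide region, and the widest CSS peak was 768 bp. All had a −log10 q between 23.9 and 44.2, at or above the percentile 98.9 of the list. The DHT list had 23 peaks in the same 9 places, up to 1398 bp wide, with 3 peaks in 5 of them. The FBS list had 31 peaks, up to 3070 bp wide, and in places bridged in 1 interval what CSS gave as 3. Group starts lay 8867 to 21015 bp apart in CSS, and 4 of the 8 spacings lay between 12161 and 12223 bp. Thus the widest peak of all, chr8:86814283-86817352, was 3070 bp in FBS with a fold of 3.11, and it matched 3 DHT peaks of up to 802 bp (highest fold 5.17) and 3 CSS peaks of up to 749 bp (highest fold 5.90). Others of the 10 widest regions in this run were chr8:86786815-86789813 (2999 bp), chr8:86756329-86759209 (2881 bp), chr8:86802108-86804440 (2333 bp) and chr8:86838665-86840895 (2231 bp). A little before the run lay chr8:86573360-86576319 (2960 bp) and chr8:86566464-86568967 (2504 bp), also with 3 CSS peaks each. Of these, chr8:86786815-86789813, chr8:86573360-86576319 and chr8:86838665-86840895 were also the 3 widest regions with a wide DHT peak and no wide CSS peak. Of the 11 FBS peaks of at least 2000 bp, 7 lay in the 1 Mb window chr8:86000001-87000000. The remaining 3 of the 10 widest were chr10:101597715-101600053, chr2:48782463-48784738 and chr7:56438262-56440747, which was wide in every list (1220 bp in DHT, 2426 bp in FBS and 2076 bp in CSS).

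**Figure D5:**
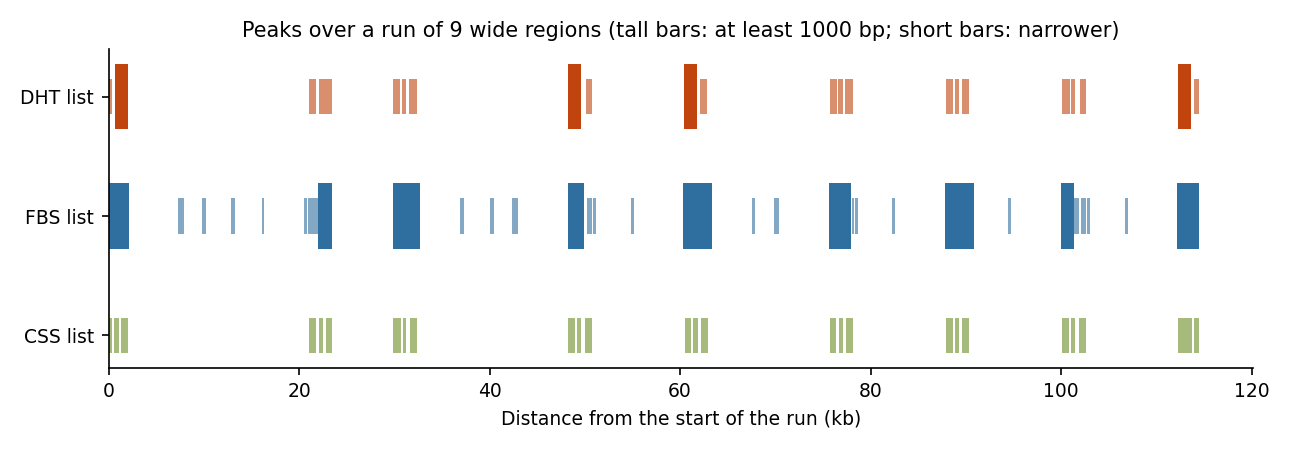
Peaks of the DHT (top row), FBS (middle row) and CSS (bottom row) lists over the run of 9 wide regions on chromosome 8, by distance from its start (horizontal axis, kb). Tall bars are peaks of at least 1000 bp and short, paler bars are narrower ones. CSS has 9 groups of 3 narrow peaks, at each of which FBS has a wide peak.

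Within 10 kb, narrower peaks of the same list were somewhat more common around DHT-wide peaks than around all DHT peaks, and not around FBS-wide or CSS-wide peaks. Within 100 kb they were somewhat more common around wide peaks of each list than around all its peaks. The same held for peaks of 500 to under 1000 bp. A narrower peak lay within 10 kb of 39.4% of DHT-wide peaks (34.8 to 44.1%), against 32.5% over all DHT peaks. The share was 67.4% of FBS-wide peaks (64.7 to 70.0%), against 69.6% over all FBS peaks, and 31.2% of CSS-wide peaks (27.8 to 34.9%), against 34.6% over all CSS peaks. For DHT peaks of 500 to under 1000 bp the share was 39.3%, so the wide ones did not stand out from the class below. Within 100 kb, DHT-wide peaks had a median of 4 narrower DHT peaks, against 3 over all DHT peaks. FBS-wide peaks had 14, against 12. CSS-wide peaks had 3, as over all CSS peaks, but a mean of 4.19, against 3.71 over all CSS peaks. Peaks of 500 to under 1000 bp had a median of 4 in DHT, 13 in FBS and 4 in CSS. Their means were 4.17, 13.9 and 4.40, against 4.21, 15.5 and 4.19 for wide peaks. DHT-wide and CSS-wide peaks thus did not stand out from that class at this distance. The surroundings of the regions that FBS lacked were not poor in FBS peaks. Regions wide in depleted serum without an FBS peak had a median of 12 FBS peaks within 100 kb, those with one had 12, and all merged regions had 12.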

How the data were processed

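The data were 3 deposited peak lists in narrowPeak format, 1 per condition, from 5 ChIP-seq libraries of VCaP cells made with an R&D Systems antibody and the ThruPLEX kit, per the labels. The labels name 1 list for both DHT libraries and 1 for both CSS libraries. Not given in the sources used here are how libraries were combined, the control, the q threshold and the read filters. The submitters' processing notes name MACS2 2.0.10.20131216 besides BWA 0.7.2-r351 and SAMtools 0.1.18, and the build hg19 (GRCh37). Each peak's fold enrichment, a ratio over background, and its −log10 q are deposited by the authors. They were used only to rank, filter or describe peaks within a list, since both depend on unknown depth. Separate calling can split 1 enriched stretch into several peaks in 1 list and not in another.

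Widths, overlaps (at least 1 bp), summit bases, distances and percentiles were computed from the lists on chromosomes 1 to 22 and X, with first bases written as 1. Where a list has several peaks at a region, its width is that of the widest and its rank that of the peak with the highest −log10 q. Shares have exact 95% Clopper-Pearson intervals. Neighbouring peaks share a source and are not independent, so the intervals are too narrow. No test between conditions could be made. The members, and every rule and list, were chosen with earlier results of these data known. Regions were named by rule: the 10 widest, the 3 strongest and 3 weakest wide peaks of each list (1 of the weakest is printed), the leading regions wide in every list, the widest wide in 1 condition, and the largest runs. Chromosomes and the longer stretches were picked after their values were seen. Gene annotation, motifs and sequence of hg19 were not used here, and the gene lists named for that purpose have no result. The code was tested on simulated data, where 348 of 348 wide regions came back right, and bedtools 2.31.1 gave the same counts in 6 of 6 list pairs. The software was Python 3.11.15 with pandas 2.3.3, numpy 2.4.6, matplotlib 3.10.9 and scipy 1.17.1.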

Additional observations from a re-analysis of the deposited data

Results flagged for a closer look

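Wide peaks also lay on sequences outside chromosomes 1 to 22 and X, which the counts above leave out. They numbered 17 in DHT, 20 in FBS and 28 in CSS. On the alternative haplotypes of chromosome 6 there were 9 in DHT, none in FBS and 19 in CSS, among 455, 203 and 541 peaks of any width in those lists. On an unplaced contig of ribosomal DNA there were 3 in DHT, 7 in FBS and 4 in CSS, among 27, 57 and 23 peaks. No control list was available to set these counts against.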

How the results depend on the processing

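No paired analysis was possible because the numbered DHT and CSS libraries share 1 peak list per condition. Leaving out 1 library was not possible either. Of 119 alternative values, 41 were labelled the same as the main value and 78 as moved. A share was the same if it stayed within the interval of the main share. A count or the midpoint difference was the same within a ratio of 1.5, and a rank within the quartile range of the main ranks. Only the midpoint difference was labelled by direction, and it kept its sign in each of its alternatives. Comparisons with all peaks had no such label, and FBS overlap by at least 1 bp did turn. For DHT-wide peaks it was 55.5% against 48.8% over all DHT peaks, but 19.9% against 27.8% with equal numbers of top peaks. For CSS-wide peaks it was 56.8% against 44.8%, but 16.5% against 26.9%. Genomic location, nearest genes, gene lists, motif words and base composition were planned for an hg19 reference and were not run. Summit coverage, linking of peaks up to 200 bp apart, equal numbers of top peaks, the midpoint alternatives and leaving out the chromosome 8 window with the regions beside peak-free stretches were chosen after seeing the data. The last of these moved none of its values.

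With a width of at least 750 bp there were 5337 wide regions, of which 81.5% had a DHT, 86.9% an FBS and 82.8% a CSS peak, 63.3% had one in each list and 2.27% were wide in each. Of those wide in FBS only, 81.1% had a DHT or CSS peak. The CSS peak was the wider at 65.7% of depleted-serum regions, 47.7% of regions had another within 100 kb, and FBS coverage at the midpoint was 2.30 points below that at 300 bp (a difference of -2.30). With at least 1500 bp there were 254 regions, with 97.2% (DHT), 73.6% (FBS) and 97.6% (CSS) present, 0.394% wide in each list, 58.1% of depleted-serum regions with an FBS peak, 95.6% of regions wide in FBS only with a DHT or CSS peak, and CSS the wider at 81.3%.

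With only peaks of a −log10 q of at least 5, presence was 74.9% (DHT), 68.4% (FBS) and 80.0% (CSS), 36.6% in each list, 16.8% for FBS at depleted-serum regions and 77.8% for DHT or CSS at regions wide in FBS only, with a midpoint difference of -1.94 points. Counting a peak as present only at a −log10 q of at least 10 gave 35.3%, 37.9%, 46.8%, 6.19%, 5.27% and 20.6% for the same 6 shares. Requiring 50% of the region covered gave 55.2%, 66.6%, 58.0%, 16.3%, 10.8% and 39.4%, and the summit base gave 69.3%, 68.8%, 70.9%, 31.3%, 16.9% and 64.4%. Equal numbers of top peaks gave 65.8% for FBS, 54.1% for each list, 12.2% for FBS at depleted-serum regions and -1.11 points at the midpoint. Thus the 53.8% of depleted-serum regions with an FBS peak rests on weak peaks and partial overlaps. In the −log10 q of at least 5 and equal-number settings, fewer regions had an FBS peak and the midpoint difference was small. Whether the dip was weaker among regions with an FBS peak was not tested. Linking peaks up to 200 bp apart gave 3486 regions, 88.0%, 86.3% and 89.8% present in DHT, FBS and CSS, and 1.72% wide in each. Leaving out the FBS list gave 793 regions, 41.9% of them wide in both remaining lists.

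A wide peak's partner of at least 500 bp was found for 97.1% (DHT in CSS), 90.9% (CSS in DHT), 46.4% (FBS in DHT or CSS), 19.2% (DHT in FBS) and 17.97% (CSS in FBS), and a wide partner with summits within 100 bp for 25.1%, 16.5%, 1.66%, 1.57% and 2.50%. Main values were 74.5%, 48.9%, 5.99%, 9.62% and 7.07%. By fold, median percentiles were 78.6 (DHT), 88.9 (FBS) and 86.2 (CSS). Chromosome 16 held 2.24% of DHT, 0.250% of FBS and 2.21% of CSS wide peaks. A wide neighbour lay within 10 kb for 2.60% and within 1 Mb for 82.0%. A narrower neighbour lay within 100 kb of 93.7% (DHT), 99.7% (FBS) and 93.4% (CSS), and within 10 kb with a −log10 q of at least 5 of 28.6%, 38.4% and 21.4%. The cause of these shifts was not tested. Unknown depth limits every comparison between lists.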
